A study of Homo sapiens with 10 samples.

Results

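The 44 genes described here are interferon-stimulated genes, given as a list of symbols and matched to the count table through the Ensembl identifiers of GENCODE release 44. All 44 were among the 60448 genes of the table. The libraries were RNA-seq of poly(A)-selected RNA from 2 human endothelial cell lines labelled wild type, EA.hy926 and HMEC-1, with 5 untreated cultures of each line grown to a confluent monolayer. EA.hy926 is a hybrid line made by fusing umbilical vein endothelial cells with the lung carcinoma line A549, and was kept in Advanced DMEM with 5% FBS. HMEC-1 is a line of dermal microvascular endothelial cells that carries the SV40 large T antigen, and was kept in MCDB 131 with 10% FBS, 10 ng/mL EGF and 1 µg/mL hydrocortisone, a glucocorticoid. Glutamine, gentamicin and penicillin were in both media, and no interferon was listed for either. Each group is therefore 1 line in 1 medium, and an effect of the line and an effect of its medium cannot be told apart.

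Interferons are secreted proteins that warn cells of infection. Type I and type III interferons act through their receptors and the kinases JAK1 and TYK2 on transcription factors, among them STAT2 and IRF9, that bind a short promoter element, the interferon-stimulated response element. Type II interferon acts through JAK1 and JAK2 and another element, the gamma-activated sequence. The genes switched on make proteins that bind or cut viral RNA, block virus entry or release, tag proteins with ISG15, and keep the pathway itself in balance. Many of them also keep a low level of expression without added interferon.

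The libraries held 34846046 to 39899324 counts in EA.hy926 against 33391640 to 43877224 in HMEC-1. Of 10 endothelial markers fixed for the check, all 10 passed the filter on low counts, and their summed level was 4514 to 5168 CPM (counts scaled to a common library size) in EA.hy926 against 1628 to 1678 in HMEC-1. CLDN5 was the 1 marker among them with 5 counts or fewer in EA.hy926. The leukocyte marker PTPRC had 6 counts or fewer in every library and the epithelial markers CDH1, ELF3 and ESRP1 had 2 or fewer. Summed levels of the other lists differed between the lines. For 10 leukocyte markers they were 15.8 to 18.0 CPM in EA.hy926 against 0.976 to 1.47 in HMEC-1. Of the 4 tested, HLA-DRA, LYZ and CD74 were called higher in EA.hy926 and CD14 lower. For 8 fibroblast markers they were 0.963 to 1.60 against 473 to 503. All 5 tested, COL1A1 and COL1A2 among them, were called lower, and DCN and LUM were at 0 in both lines. For 10 epithelial markers they were 1275 to 1389 against 425 to 487. Of the 6 tested, 2 were called higher in EA.hy926 (KRT8 and EPCAM) and 2 lower (KRT19 and CLDN4). Of 8 genes that glucocorticoids are known to raise, 6 were called lower in EA.hy926, where 16.4% of all genes tested were. TSC22D3 was called higher and ANGPTL4 was not called. The summed level of the 8 was 313 to 331 CPM against 944 to 1005. The part of these differences in the results for interferon-stimulated genes was not tested. In bulk RNA, fewer cells that express a gene and less RNA per cell cannot be told apart.

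The response element was searched as GAAA, any 2 bases and GAAA on both strands, which reads as TTTC, any 2 bases and TTTC where it lies on the other strand, in RefSeq promoter windows of GRCh38.p14 that run from 250 bases before a gene's start to 50 after it. The following stretches are shown because they hold that core in members called higher in EA.hy926 (IFI44L, IFI44, IFI27, IFIT1, IFI6, SAMD9), in a member that was not called (IFITM3) and in the member called lower (EPSTI1). They are written on the strand of the gene, with the core in capitals, and none of them overlaps an exon in GENCODE 44.
IFI44L (chr1:78620274-78620303, plus strand, in an intron of the gene): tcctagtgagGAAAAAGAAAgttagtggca
IFI44 (chr1:78649761-78649790, plus strand, upstream): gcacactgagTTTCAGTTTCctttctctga
IFI27 (chr14:94110631-94110660, plus strand, in an intron of the gene): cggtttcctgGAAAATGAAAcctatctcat
IFIT1 (chr10:89392497-89392526, plus strand, upstream): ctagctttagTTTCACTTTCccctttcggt
IFI6 (chr1:27672288-27672317, minus strand, upstream): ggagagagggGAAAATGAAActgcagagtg
SAMD9 (chr7:93118096-93118125, minus strand, upstream): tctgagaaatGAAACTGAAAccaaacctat
IFITM3 (chr11:320876-320905, minus strand, in an intron of the gene): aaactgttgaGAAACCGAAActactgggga
EPSTI1 (chr13:42992272-42992301, minus strand, upstream): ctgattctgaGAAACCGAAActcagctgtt

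Windows were found for 35 members, and 25 of them (71.4%) held the core, against 4.38% of the 27305 genes in the promoter table. With a spacing of 3 bases between the GAAA blocks also allowed the count remained 25, against 7.39% of all genes. The core of the gamma-activated sequence, TTC, any 3 bases and GAA, which reads alike on both strands and may overlap the other motif, was in the windows of 12 members (34.3%) against 9.38% of all genes. MX2, IFIT2, OASL, IRF7, TRIM22, USP18, OAS2, GBP2 and IFITM2 had no entry in the table. A match describes the letters and is not evidence of binding. Of the 25 members with the core, 19 were called higher in EA.hy926 in the comparison described next, 1 was called lower and 5 were not called. Of the 10 without it, CMPK2 was not tested, 6 were called higher and 3 were not called. Of the 9 with no entry, 7 were called higher and 2 were not called. Over all genes tested, 19.1% were called higher. EPSTI1 and IFI44L, the called members at the opposite ends of the comparison, both hold the core, with its first base 50 bases before the start in EPSTI1 and 73 and 164 bases before it in IFI44L.

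Most of the interferon-stimulated genes were expressed more strongly in EA.hy926 than in HMEC-1. Of the 44 members, 43 passed the filter on low counts, and 32 of these were upregulated in EA.hy926, where a call needs an adjusted P value under 0.05 in edgeR's quasi-likelihood test and a log2 fold change (log2FC) over 1 in size. EPSTI1 was the 1 member downregulated in EA.hy926, and 10 were not past both thresholds. Over all 16310 genes tested, 35.5% were called in either direction, 19.1% as higher and 16.4% as lower. On the adjusted P value alone 40 members were higher and EPSTI1 lower, where 85.8% of all genes passed in either direction and 42.6% were higher. The median log2FC of the 43 members was 2.34, with quartiles of 0.99 and 3.91, while the median over all genes tested was -0.01. By fitted values, members over 4-fold higher in EA.hy926 numbered 23 (53.5%) against 10.5% of all genes. Those over 16-fold higher numbered 10 (23.3%) against 5.06%. The 10 include RSAD2 and MX2, whose 95% counting intervals, described below, start under 16-fold, at 11.7 and 15.6. In 38 members every EA.hy926 library lay above every HMEC-1 library, which held for 38.3% of all genes. Among the 43 tested, the ranges overlapped in MX1, IRF9, IFITM3 and IFITM2. Without EA.hy926 replicate 1, in which most members were highest, 32 were still called higher and the median log2FC was 2.18. Scaled by library totals instead of TMM factors, which moved the median of all genes by -0.13, 28 were called higher. In that fit 47.7% of all called genes were higher in EA.hy926, against 53.8% with TMM factors.

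**Figure D1:**
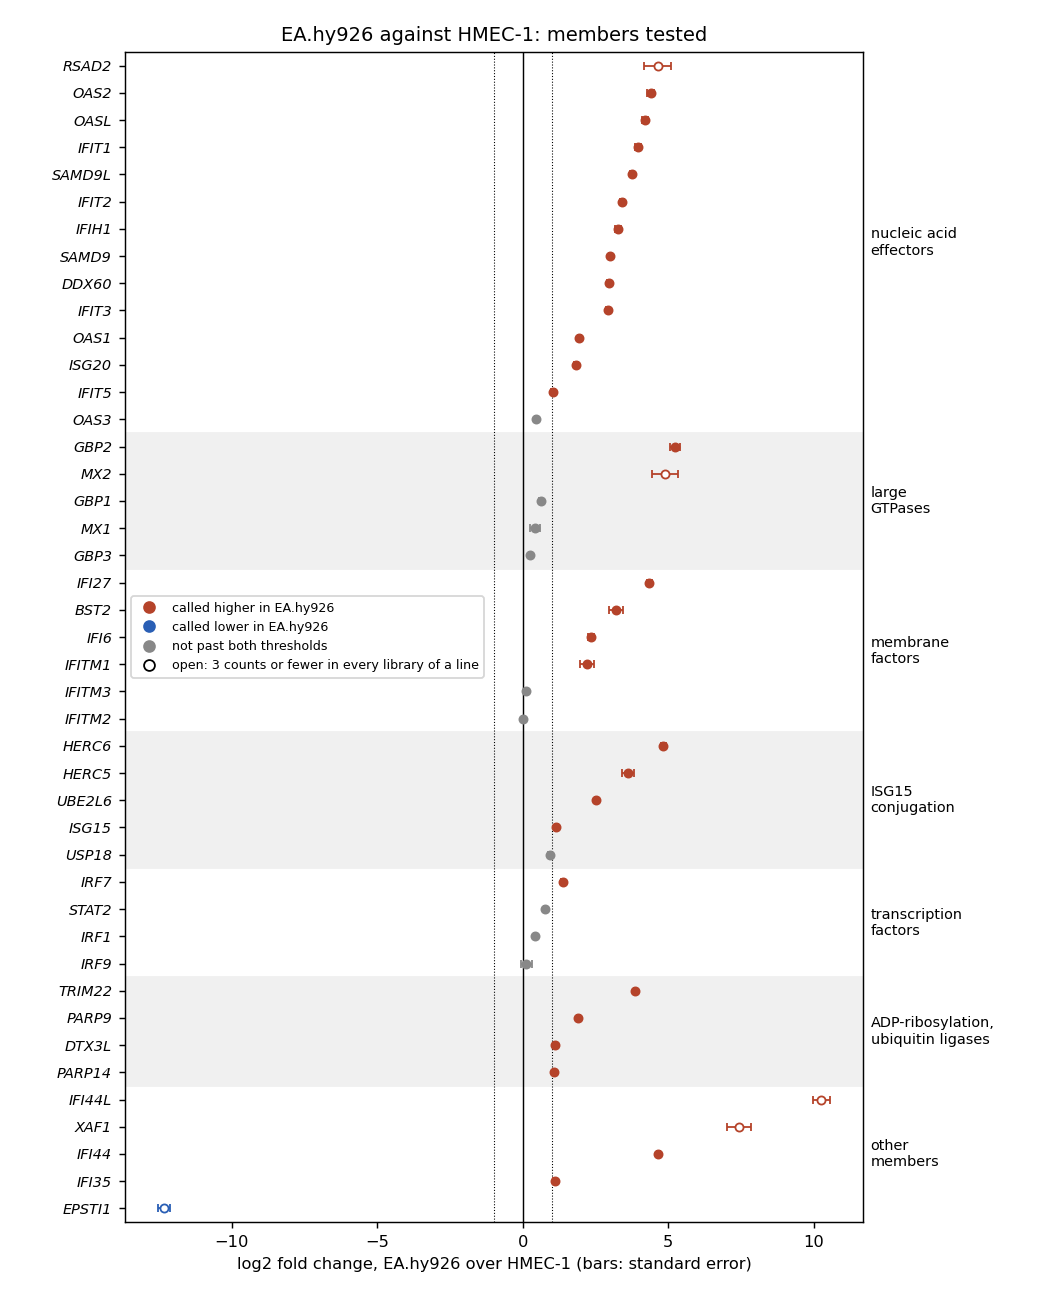
Points give the log2FC of the 43 tested members (x axis; EA.hy926 over HMEC-1) with the standard error as a bar, grouped by role; dotted lines mark a log2FC of 1 in either direction and open points mark genes with 3 counts or fewer in every library of a line, whose fitted values are not bounds. 32 points lie right of the upper line, 10 between the lines and EPSTI1 far to the left.

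The 15 enzymes and binding proteins that act on viral nucleic acid formed the biggest role group. Of the 14 tested, 13 were upregulated in EA.hy926 and the group's median log2FC was 3.13. OAS2 and OASL belong to the oligoadenylate synthetase family, in which OAS2 makes the signal that activates RNase L and OASL aids RNA sensing. The CPM of OAS2 was 95.9, 68.1, 70.6, 65.5 and 64.6 in EA.hy926 replicates 1 to 5 and 3.62, 3.53, 3.93, 3.17 and 3.04 in those of HMEC-1. OASL had 15.8, 16.5, 13.0, 16.2 and 15.7 CPM in EA.hy926 and 0.913, 1.00, 0.867, 0.712 and 0.680 in HMEC-1. The lines were thus far apart in every library for both genes. The log2FC of OAS2 was 4.39 ± 0.11 (SE, n = 5 per line; adjusted P = 2.26e-19 in edgeR's quasi-likelihood test), and that of OASL was 4.20 ± 0.10 (adjusted P = 1.42e-19 in the same test). OAS1, which also makes the RNase L signal, was 3.85-fold higher, with 69.9 to 84.0 CPM in EA.hy926 against 18.4 to 20.4 in HMEC-1. OAS3, the family member that prefers long double-stranded RNA, differed least. Its CPM was 100.7, 86.2, 92.0, 95.4 and 87.5 in EA.hy926 and 68.9, 63.0, 68.8, 70.0 and 67.5 in HMEC-1, so the ranges were apart but the log2FC was 0.45 ± 0.04 and the gene was not called.

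The IFIT proteins bind viral RNA that lacks the cap marks of the host. IFIT1 ran from 27.1 to 37.3 CPM in EA.hy926 and from 1.70 to 2.40 in HMEC-1, a log2FC of 3.97. IFIT2 and IFIT3, its partners, had log2FCs of 3.41 and 2.91. IFIT5, the IFIT gene that differed least, had 18.7, 16.3, 15.7, 17.1 and 15.9 CPM in EA.hy926 and 8.24, 7.99, 7.29, 8.44 and 8.66 in HMEC-1. The ranges of IFIT5 did not overlap, and its log2FC of 1.05 ± 0.06 (adjusted P = 8.99e-13, edgeR's quasi-likelihood test) lay just past the threshold. It fell to 0.998 without HMEC-1 replicate 3 and to 0.91 with library totals, which ended the call. The RNA helicases IFIH1, the sensor MDA5, and DDX60 had log2FCs of 3.28 and 2.95, and the exonuclease ISG20 one of 1.84. SAMD9 and SAMD9L, which restrict viral translation, were 7.95-fold and 13.4-fold higher, with 197.5 to 205 CPM of SAMD9 in EA.hy926 against 24.6 to 26.4 in HMEC-1. RSAD2 (viperin), an enzyme that makes a chain-terminating nucleotide, and its neighbour CMPK2, a nucleotide kinase, were nearly silent. RSAD2 had 25, 20, 17, 25 and 39 counts in EA.hy926 and 1, 3, 1, 0 and 0 in HMEC-1, a ratio of scaled counts of 28.0 (95% counting interval 11.7 to 87.8), which became 55.8 without HMEC-1 replicate 2. CMPK2 had no count in any EA.hy926 library and 0, 3, 5, 2 and 3 counts in HMEC-1. With a floor of 3 counts over the EA.hy926 group it was at least 3.90-fold lower there, or 3.07-fold without EA.hy926 replicate 4. CMPK2 was left out of the test by the filter. Both genes were close to the limit of detection in the line that was lower. Counting intervals and floors cover counting error only, and a floor takes the counts of the higher line as exact.

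Among the large GTPases, which assemble on viral or bacterial structures, 2 of 5 were upregulated. GBP2 (chr1:89106132-89150456) had 6.58, 4.94, 5.69, 5.91 and 5.60 CPM in EA.hy926 and 0.143, 0.172, 0.108, 0.245 and 0.0785 in HMEC-1. Its log2FC was 5.24 ± 0.18 (adjusted P = 6.33e-17, edgeR's quasi-likelihood test), or 37.7-fold, from 3 to 10 counts per library in HMEC-1. MX2 (chr21:41361999-41409393), which blocks the nuclear entry of some viruses, had 63, 21, 51, 44 and 27 counts in EA.hy926 and 3, 1, 2, 0 and 1 in HMEC-1, a ratio of 32.7 (95% counting interval 15.6 to 82.4). MX1, its neighbour and the classic influenza restriction factor, was low in both lines. It had 1.84, 1.21, 1.14, 1.33 and 1.40 CPM in EA.hy926 and 1.06, 0.980, 1.17, 1.03 and 0.942 in HMEC-1. These ranges overlapped and the log2FC was 0.42 ± 0.16. GBP1 and GBP3 also stayed under the fold threshold, with log2FCs of 0.62 and 0.23. GBP3 had 44.6, 45.1, 42.7, 43.8 and 44.1 CPM in EA.hy926 and 35.9, 37.1, 38.1, 37.8 and 38.6 in HMEC-1, which did not overlap. GBP genes have close copies beside them, so that the split of reads among them is uncertain.

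Of the 6 membrane factors, 4 were upregulated. IFI27, a mitochondrial membrane protein, had 152, 121.5, 114, 123.7 and 111.8 CPM in EA.hy926 and 7.10, 6.10, 6.14, 5.35 and 5.97 in HMEC-1. IFI6, a relative of IFI27 that protects endoplasmic reticulum membranes from flaviviruses, had 206, 122, 134, 138 and 111 CPM in EA.hy926 and 28.3, 27.1, 27.7, 26.7 and 30.5 in HMEC-1. Neither gene overlapped between the lines, and both were highest in EA.hy926 replicate 1. Exons of LINC02574, with no count in any library, lie over 26.6% of the canonical transcript of IFI6. Reads of IFI6 could have been split or dropped there. The log2FC was 4.35 ± 0.08 for IFI27 (adjusted P = 1.65e-21) and 2.34 ± 0.12 for IFI6 (adjusted P = 4.82e-14), by edgeR's quasi-likelihood test. BST2 (tetherin), which holds budding virus at the cell surface, had a log2FC of 3.19, with 3.13 to 7.45 CPM in EA.hy926 against 0.366 to 0.662 in HMEC-1. The IFITM proteins block the fusion of viruses with endosomes, and their genes split. IFITM1 was 4.62-fold higher, at 1.28 to 2.41 CPM against 0.196 to 0.456. IFITM3 had 422, 377, 374.5, 367.5 and 356 CPM in EA.hy926 and 343, 374, 351, 341 and 360 in HMEC-1. IFITM2 had 103, 104, 104, 99.9 and 105.5 CPM in EA.hy926 and 102, 112.7, 97.0, 99.5 and 104 in HMEC-1. The ranges overlapped for IFITM3 and IFITM2, with log2FCs of 0.10 ± 0.04 and 0.01 ± 0.03. Both turned negative with library totals, at -0.03 and -0.13. IFITM1, IFITM2 and IFITM3 are near-identical over much of their coding sequence, so that reads shared among them are uncertain.

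In the ISG15 system, which attaches the ubiquitin-like protein ISG15 to other proteins, 4 of 5 genes were upregulated. HERC6 (chr4:88378739-88443097), a ligase of the HERC family, had 37.6, 31.2, 32.3, 30.2 and 28.1 CPM in EA.hy926 and 0.856, 1.13, 1.15, 1.13 and 1.28 in HMEC-1. HERC5, the main ISG15 ligase in human cells, had 2.42 to 3.47 CPM against 0.172 to 0.340. The log2FC was 4.83 ± 0.10 for HERC6 (adjusted P = 4.08e-21, edgeR's quasi-likelihood test) and 3.61 for HERC5. UBE2L6, the conjugating enzyme, had 101, 98.5, 89.8, 89.9 and 89.6 CPM in EA.hy926 and 14.6, 16.6, 16.4, 16.4 and 17.7 in HMEC-1, a log2FC of 2.52 ± 0.05 (adjusted P = 1.23e-21, same test). ISG15 itself (chr1:1001138-1014540) differed less. It had 53.6, 43.1, 44.8, 48.8 and 40.7 CPM in EA.hy926 and 20.6, 21.1, 20.7, 20.7 and 20.3 in HMEC-1. The lines did not overlap, and the log2FC was 1.16 ± 0.06 (adjusted P = 3.82e-14, edgeR's quasi-likelihood test). USP18, the protease that removes ISG15 and also damps the type I receptor, had a log2FC of 0.93 and was not called. It has near-identical copies elsewhere in the genome, which makes its count uncertain.

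Of the 4 transcription factors that drive the response, 1 was upregulated. Their median log2FC of 0.59 was close to the 0.62 of the large GTPases. IRF7 (chr11:612553-615983), which amplifies type I interferon, had 31.5, 25.4, 27.7, 29.5 and 26.9 CPM in EA.hy926 and 10.1, 11.0, 11.9, 10.5 and 10.9 in HMEC-1. Its log2FC was 1.37 ± 0.06 (adjusted P = 3.38e-15, edgeR's quasi-likelihood test). STAT2 and IRF1 lay higher in EA.hy926 in every library but under the fold threshold, with log2FCs of 0.77 and 0.42. IRF9 had 30, 31, 33, 43 and 30 counts in EA.hy926 and 38, 38, 36, 29 and 29 in HMEC-1, which overlapped. The annotation places 93.1% of its canonical transcript under the exons of the gene ENSG00000259529, which had 13 to 29 counts, so the count of IRF9 may not stand for its expression, and the log2FC of 0.12 ± 0.18 turned to -0.01 with library totals. IRF1 is overlapped over 16.3% of its canonical transcript by IRF1-AS1.

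All 4 members that act by ADP-ribosylation or as ubiquitin ligases were upregulated. TRIM22, a ubiquitin ligase with antiviral activity, was the most different, with 194.6 to 219 CPM in EA.hy926 against 12.9 to 15.7 in HMEC-1 and a log2FC of 3.85. PARP9 and DTX3L form a complex, and lie head to head on chromosome 3. PARP9 had a log2FC of 1.91. DTX3L had 113, 97.0, 101, 96.8 and 92.8 CPM in EA.hy926 and 46.4, 42.4, 46.6, 47.9 and 49.5 in HMEC-1. PARP14, the mono-ADP-ribosyltransferase next to them, had 149.7, 131.5, 134.5, 135 and 131 CPM in EA.hy926 and 63.7, 59.8, 64.9, 68.6 and 67.2 in HMEC-1. For both genes EA.hy926 was above HMEC-1 in every library, with log2FCs of 1.11 ± 0.05 (adjusted P = 2.21e-15) and 1.07 ± 0.04 (adjusted P = 1.74e-16) by edgeR's quasi-likelihood test. With library totals they were 0.97 and 0.94, under the threshold.

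The remaining 5 members held both ends of the list. IFI44L (chr1:78619902-78646145), a little-understood interferon marker, had 2136, 1224, 1377, 1414 and 1208 counts in EA.hy926 and 0, 2, 1, 2 and 1 in HMEC-1. Its ratio was 1363 (95% counting interval 626 to 3716). IFI44, its neighbour, had 84.7, 80.6, 77.7, 79.6 and 79.6 CPM in EA.hy926 and 3.08, 3.53, 3.32, 2.90 and 3.01 in HMEC-1. Of the pair, IFI44L was close to silent in HMEC-1 while IFI44 was present at a low level, with a log2FC of 4.66 ± 0.05 (adjusted P = 8.00e-26, edgeR's quasi-likelihood test). XAF1 (chr17:6755447-6775647), a proapoptotic antagonist of XIAP, had 122, 70, 70, 84 and 66 counts in EA.hy926, and 2 counts in HMEC-1, both in replicate 3. The ratio was 229 (95% counting interval 63.0 to 1897). Without HMEC-1 replicate 3 no count was left in that line, and a floor of 3 counts over the group put XAF1 at least 118-fold higher in EA.hy926. Exons of another gene, PRAL, with at most 1 count in any library, lie over 74.2% of the canonical transcript of XAF1, so that reads of the pair could have been split or dropped. IFI35, which binds NMI, had 32.9, 29.0, 29.4, 29.3 and 28.0 CPM in EA.hy926 and 13.5, 14.7, 13.8, 14.7 and 12.8 in HMEC-1, with a log2FC of 1.10 ± 0.05 (adjusted P = 1.33e-14, edgeR's quasi-likelihood test), and 0.96 with library totals.

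EPSTI1 (chr13:42886388-42992271), an interferon-response gene first described in breast cancer stroma, was the exception among the members tested. No EA.hy926 library held a count, and the HMEC-1 libraries held 566, 695, 785, 701 and 630, or 16.1, 17.0, 17.0, 17.2 and 16.5 CPM. With a floor of 3 counts over the 5 EA.hy926 libraries, the level there was at least 1013-fold lower. HMEC-1 varied little in this gene, and the absence held in each of the 5 EA.hy926 cultures. No exon of another gene in the table overlaps EPSTI1.

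Levels between members were compared as CPM per kilobase of merged exon length, summed over the 44 members. This sum was 872, 713, 724, 729 and 682 in EA.hy926 replicates 1 to 5 and 317.5, 336, 319, 316 and 331 in those of HMEC-1. Every EA.hy926 library was thus above every HMEC-1 library. As a share of all counts, the members made up 0.239% to 0.278% in EA.hy926 against 0.104% to 0.109% in HMEC-1. The 5 highest members per kilobase in EA.hy926 were IFI6 (152 ± 39.8, SD, n = 5), IFITM3 (133 ± 8.79), IFITM2 (64.5 ± 1.35), ISG15 (53.3 ± 5.87) and UBE2L6 (45.5 ± 2.74). Ranges of IFI6 and IFITM3 overlapped, as did those of ISG15 and UBE2L6, so these neighbours in the order could not be told apart. The range of IFITM2 met neither that of IFITM3 nor that of ISG15. In HMEC-1 the 5 highest were IFITM3 (124 ± 4.73), IFITM2 (64.2 ± 3.74), IFI6 (30.0 ± 1.59), ISG15 (23.9 ± 0.33) and GBP3 (8.75 ± 0.25), with no overlap between neighbours among these. The range of GBP3, 8.37 to 9.02, overlapped those of DTX3L (7.35 to 8.58) and UBE2L6 (7.08 to 8.60), which came next. The order depends on the length used, since some merged lengths are several times the canonical transcript. Per kilobase of canonical transcript, a scale chosen after seeing the data, the 5 highest in EA.hy926 were IFITM3, IFI6, IFI27, IFITM2 and UBE2L6, and in HMEC-1 IFITM3, IFITM2, IFI6, ISG15 and UBE2L6. Under 1 CPM on average were 4 of 44 members in EA.hy926 and 11 in HMEC-1.

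**Figure D2:**
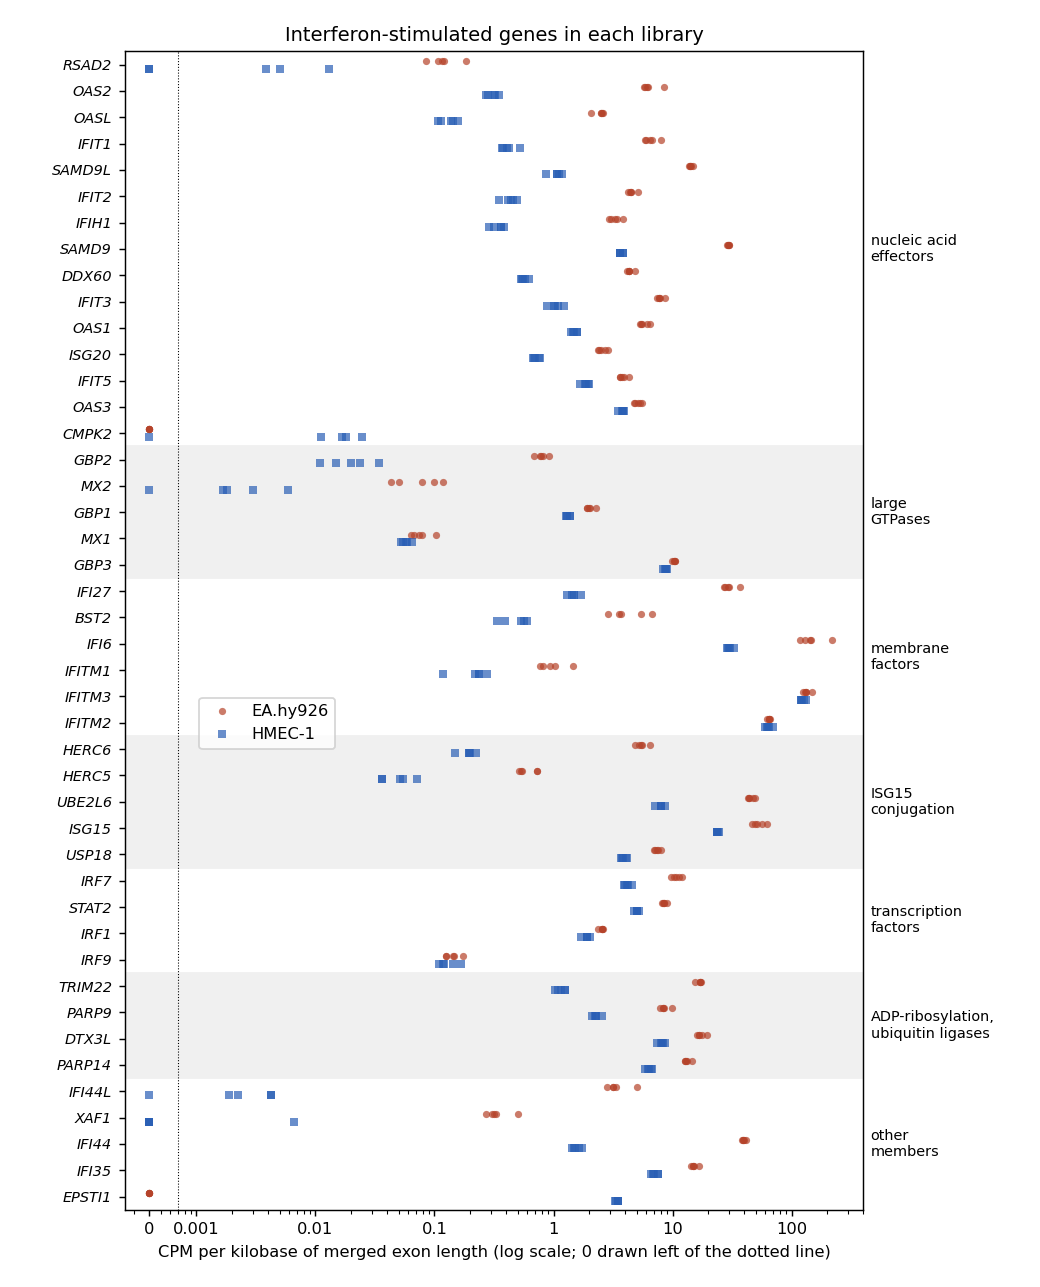
Each point is 1 library, with CPM per kilobase of merged exon length on a log x axis and the 44 members by role on the y axis; circles are EA.hy926 and squares HMEC-1, and libraries with no count are drawn left of the dotted line. The lines are apart for most members, meet for IFITM3, IFITM2, IRF9, MX1 and CMPK2, and change places for EPSTI1. CMPK2 has no count in any EA.hy926 library.

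Many members lie side by side, and 27 of the 44 fell into 10 loci with neighbours no more than 500000 bases apart. Neighbours often differed in how far apart the lines were. In the OAS locus (chr12:112905856-113011723) the log2FC was 1.95 for OAS1, 0.45 for OAS3 between them, and 4.39 for OAS2. In the GBP locus (chr1:89006679-89150456) it was 0.23 for GBP3, 0.62 for GBP1 and 5.24 for GBP2. The MX genes (chr21:41361999-41470071) showed the same kind of contrast, with MX2 called and MX1 not. In the IFIT locus (chr10:89283694-89421605) IFIT2, IFIT3 and IFIT1 had log2FCs from 2.91 to 3.97, and IFIT5 had 1.05. In the IFITM locus (chr11:303655-615983), which holds IRF7 at its far end, IFITM1 was called and its flanking genes IFITM2 and IFITM3 were not. The pairs HERC6 and HERC5 (chr4:88378739-88506163) and SAMD9 and SAMD9L (chr7:93099513-93148385) were upregulated together. The differences between neighbours were not tested.

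**Figure D3:**
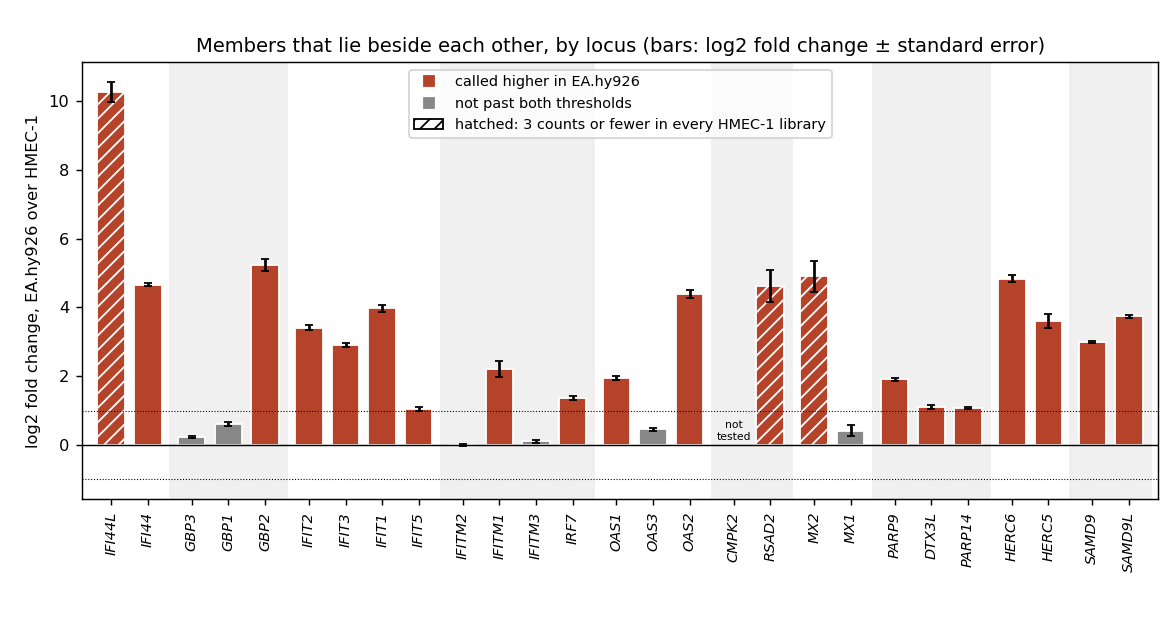
Bars give the log2FC (y axis; EA.hy926 over HMEC-1) with its standard error for the members of 10 loci, in the order in which they lie, and shading separates loci; hatched bars mark members with 3 counts or fewer in every HMEC-1 library. GBP2, OAS2 and MX2 stand above the threshold of 1 while GBP3, GBP1, OAS3 and MX1 beside them lie under it.

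Within EA.hy926 the members did not vary alike in all cultures. Of the 42 members with at least 10 counts in every EA.hy926 library, 40 were above their mean for the line in replicate 1 and 35 were highest there, where 24.7% of all genes were. The median deviation of the members in replicate 1 was 0.17 on the log2 scale, against 0.01 for all genes. The 9 endothelial markers that met the same limit had a median deviation of 0.11 in that library, from 0.02 to 0.34. In replicates 2 to 5 the median deviation of the members was -0.04, -0.03, -0.01 and -0.08. Some members stood out more than others. In replicate 1 BST2 was 1.75 times the mean of the other 4 libraries, MX2 1.72, XAF1 1.64, IFI6 1.63, IFITM1 1.63 and IFI44L 1.59, while SAMD9, GBP3, IRF1, USP18 and IFITM2 were at 0.999 to 1.02. Of the 10 interferon genes listed for the pathway, none but IFNE had over 3 counts in any library, replicate 1 included. The list holds only IFNA1 and IFNA2 of the IFNA genes. The part of interferon in the levels of replicate 1 was not tested. The median SD of log2 CPM over the 5 cultures was 0.12 for the 42 members and 0.08 for all genes. In HMEC-1 it was 0.09 for 36 members and 0.07 for all genes, and the median deviation of the members ran from -0.01 to 0.02 over the 5 libraries.

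**Figure D4:**
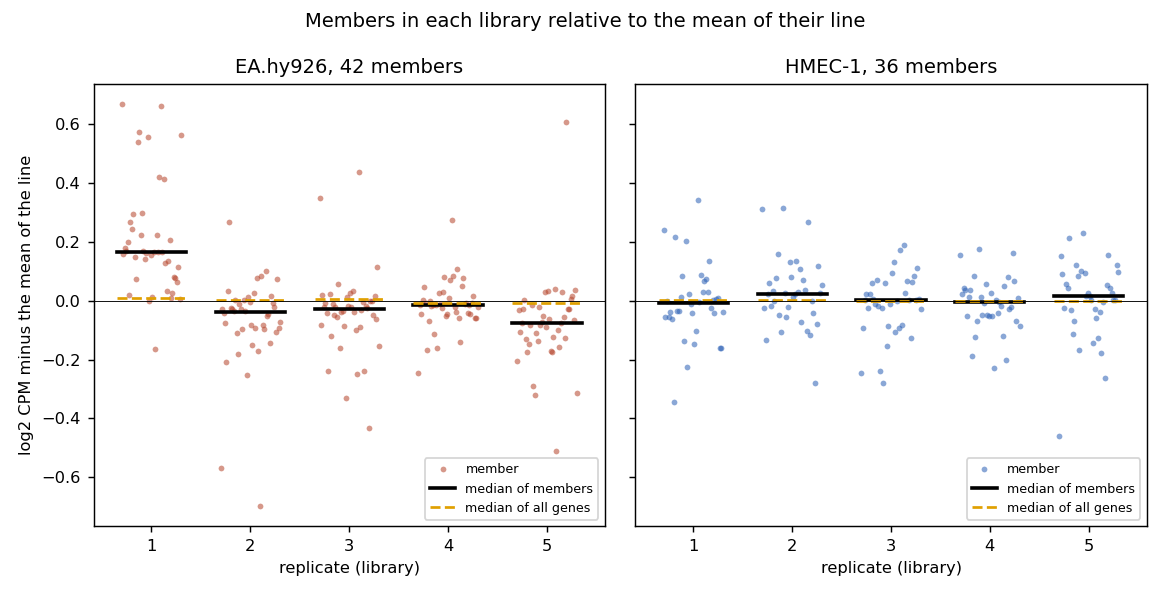
Points give log2 CPM of each member minus its mean in the line (y axis) for replicates 1 to 5 (x axis) of EA.hy926 and HMEC-1; black bars are the median of the members and dashed bars that of all genes. Replicate 1 of EA.hy926 has a median of 0.17, while the other 9 libraries lie between -0.08 and 0.02.

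The genes that carry the interferon signal to the members were taken as a list of 42, of which 30 passed the filter, 8 were upregulated and 2 downregulated in EA.hy926. As a share of those tested, the calls in both directions together were close to the 35.5% of all genes. The directions differed, with 26.7% called higher against 19.1% of all genes. Over all genes 16.4% were called lower. Of 10 ligands, IFNE, a type I interferon best known from the reproductive tract, was the one tested. It had 15 to 33 counts in EA.hy926 against 1 to 7 in HMEC-1, and its log2FC was 3.08 ± 0.38. The other 9 ligands, among them IFNB1, IFNG and IFNL1, had 3 counts or fewer in every library, and IFNA2, IFNK, IFNG and IFNL3 had none. The 6 receptor genes all had a negative log2FC with an adjusted P value under 0.05 in edgeR's quasi-likelihood test, as did 7057 of all 16310 genes. Of the 6, 2 were past both thresholds, and the ranges of the lines overlapped in 1. IFNGR1, the ligand-binding chain for type II interferon, had 701 to 845 counts in EA.hy926 against 2490 to 3359 in HMEC-1, a log2FC of -1.70 ± 0.04. IFNLR1, the chain specific to type III interferon, had no count in EA.hy926 against 11 to 26 in HMEC-1, at least 27.6-fold lower with the same floor. The receptor chains for type I interferon differed little, with log2FCs of -0.09 for IFNAR1 and -0.29 for IFNAR2. IFNGR2 had -0.40 and IL10RB, the chain that type III interferon shares with other cytokines, -0.54. Exons of other genes overlap 93.1% of the canonical transcript of IFNAR2 and 89.2% of that of IL10RB, so these 2 counts may not stand for expression.

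The 4 kinases and signal transducers described here were not called. JAK1 and STAT3 had log2FCs of 0.13 and 0.08, which turned to -0.002 and -0.05 with library totals, TYK2 had -0.17 and JAK2 -0.62. Of 12 sensors and adaptors tested, 4 (33.3%) were upregulated, against 19.1% of all genes tested. These were TLR3, the endosomal receptor for double-stranded RNA, at a log2FC of 3.10, DHX58 at 2.99, RIGI, the cytosolic sensor of viral RNA, at 2.28, and STING1, the adaptor of DNA sensing, at 1.86. The adaptor MAVS, with 0.43, and the transcription factor IRF3, with -0.19, were not called. SOCS1, the feedback inhibitor of JAK kinases, had the highest log2FC of the list, 3.48 ± 0.17, with 102 to 130 counts in EA.hy926 against 7 to 17 in HMEC-1. SOCS3 and TRIM25 were upregulated too, with 1.22 and 1.66.

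**Figure D5:**
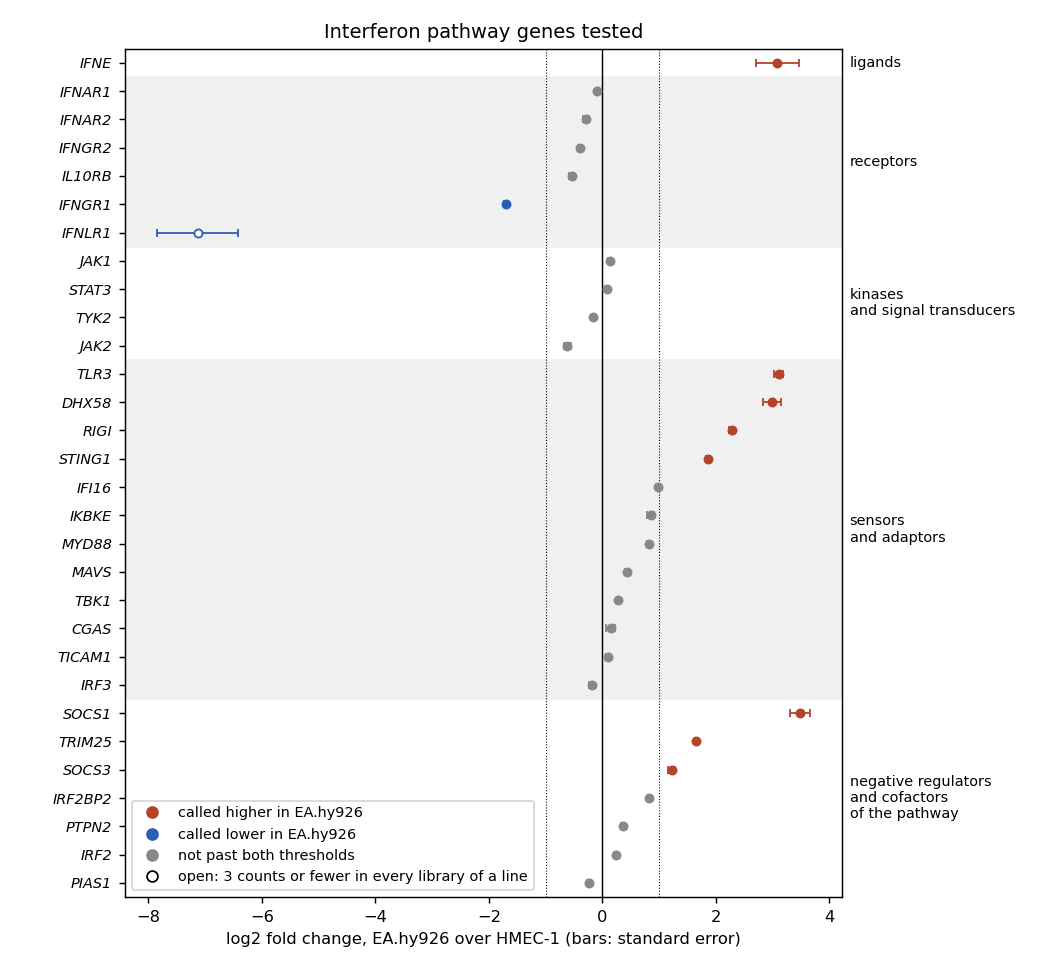
Points give the log2FC (x axis; EA.hy926 over HMEC-1) with its standard error for the 30 pathway genes tested, by role; dotted lines mark a log2FC of 1 in either direction, and the open point is IFNLR1, which had no count in EA.hy926. All 6 receptors lie left of 0, from -0.09 to -7.13, and SOCS1 is farthest right at 3.48. The -7.13 is the fitted value of IFNLR1 and is not a bound.

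A further 35 genes widely known to rise with interferon, of which IFI16 is also in the pathway list, had a lower median than the members. Of 34 tested, 14 (41.2%) were upregulated, 3 downregulated and 17 not called, and the median log2FC was 0.70. Over all genes tested, 19.1% were called higher and 16.4% lower. GBP4, in the GBP family, was highest, with 102 to 151 counts in EA.hy926 against 0 to 3 in HMEC-1, a ratio of 105 (95% counting interval 48.0 to 287), which became 173 without HMEC-1 replicate 1. PHF11 was lowest, with 190 to 235 counts against 568 to 766 and a log2FC of -1.52 ± 0.06 (adjusted P = 4.74e-16, edgeR's quasi-likelihood test). LGALS3BP and TNFSF10 (TRAIL) were the other downregulated genes, at -1.18 and -1.004. EIF2AK2 (PKR) and ADAR, which act on double-stranded RNA, had log2FCs of 0.11 and 0.25, and the former turned to -0.02 with library totals. The members and this list were chosen with earlier results of these data known, so the difference between the lists is a description.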

How the data were processed

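The values deposited by the authors were raw gene counts per library, without normalization. Per the labels, the processing notes name fastp, HISAT2, featureCounts and DESeq2 on GRCh38, while the study's methods name HTSeq for counting; the annotation release and the strand setting are not given in the sources used here. Reads shared by overlapping genes or near-identical copies may therefore have been dropped or split. Of 60448 genes, 56434 (93.4%) matched GENCODE 44 and 27377 had no count; 0 columns were left unmapped.

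The count test was edgeR 4.0.16 in R 4.3.3, with TMM factors (EA.hy926 0.942 to 0.964, HMEC-1 1.04 to 1.05), filterByExpr (minimum count 10, minimum total 15), the quasi-likelihood test over all 16310 genes kept and Benjamini-Hochberg adjustment. Calls needed an adjusted P value under 0.05 and a log2FC over 1 in size, positive where EA.hy926 was higher. CPM were TMM-scaled, and per-kilobase values used merged exon lengths. A gene with 3 counts or fewer in every library of a line was described by its summed counts. There an exact 95% binomial interval for their ratio, or a floor of 3 counts over the group, replaced the fitted value. Calls, medians, counts of members past a fold and the figures of log2FC kept the fitted values. The log2 CPM used a prior count of 2. In simulated counts for EA.hy926 against HMEC-1, 200 genes were changed by a factor of 3, in equal numbers up and down. The test called 199 of 200 changed genes and 1 unchanged gene among 16052. The change made lay past the fold threshold, so the check does not cover genes near it. All other genes kept 1 mean for both lines, whereas 35.5% of genes were called in the data. The check therefore does not cover scaling between lines that differ in many genes, or genes silent in 1 line. Alternatives were DESeq2 1.42.0, limma-voom (limma 3.58.1), RLE factors, library totals, other filters, a replicate block and each library left out. The replicate numbers are shared by the lines, but deviations of same-numbered libraries correlated at -0.023 to 0.039, so no pairing was used. Cultures are described as 5 independent replicates per line; P values measure the spread between them.

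The members and lists were chosen with earlier results of these data known. A gene of the pathway and further lists is not reported here and is left out of their counts. Every member may be named; full values were given for the 6 highest and 6 lowest log2FCs among called members with over 3 counts in a library of each line, for members at or under 3 counts in a line, and for the 5 highest levels per line; of other lists, the extremes, receptors, kinases and ligands.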

Additional observations from a re-analysis of the deposited data

Results flagged for a closer look

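Members were checked in each line for a library that stood apart from the other 4. The gap had to be over 0.71 of the group's range, Dixon's limit for 5 samples. This picked out 9 of the 82 groups checked, each a member in 1 line. Not every member was checked in both lines. The limit is set to pick about 1 in 20 by chance in independent groups. Members share the same libraries, so the 9 are not independent and cannot be set against that rate. In 7 of the 9 the library was EA.hy926 replicate 1, which was the highest: DDX60 at 84.6 CPM against 71.4 to 74.9 in the others, IFI35 at 32.9 against 28.0 to 29.4, IFI44L at 57.8 against 32.6 to 39.2, IFI6 at 206 against 111 to 138, OAS2 at 95.9 against 64.6 to 70.6, PARP14 at 149.7 against 131 to 135, and XAF1 at 3.30 against 1.78 to 2.19. The cause of the higher levels in that culture was not tested. The remaining pair were low values, IRF1 at 29.2 CPM in EA.hy926 replicate 2 against 31.2 to 31.7 in the others, and OASL at 13.0 CPM in EA.hy926 replicate 3 against 15.7 to 16.5.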

How the results depend on the processing

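The 33 calls among the members stood at 33 with DESeq2, limma-voom, RLE factors and the replicate block, and at 32 or 33 with any 1 library left out. The replicate block changed no call of a member. The 10 calls among pathway genes ran from 7 to 12, and the 17 among further interferon-response genes from 13 to 17, over these and the other settings. With library totals 29 members were called, 28 of them higher. With no filter on low counts 34 were called, 2 of them lower in EA.hy926 (EPSTI1 and CMPK2). With at least 10 counts required in every library, 25 were called, all higher, and 0 lower, since EPSTI1 then left the test. The median log2FC of 2.34 became 2.21 with library totals and 1.91 with the stricter filter, and ran from 2.18 (without EA.hy926 replicate 1) to 2.43 with 1 library left out. The summed level in HMEC-1 was 324 CPM per kilobase, and 339 with library totals. Per kilobase of canonical transcript, a choice made after seeing the data, it was 906, and 1719 against 744 in EA.hy926. Directions turned in 3 members near 0. With library totals IFITM2 was -0.13, IFITM3 -0.035 and IRF9 -0.013, and IFITM2 was -0.014 with no filter and between -0.025 and 0.026 with 1 library left out. With library totals IFIT5 (0.91), DTX3L (0.97), PARP14 (0.94) and IFI35 (0.96) fell under the fold threshold. Depth limits CMPK2, RSAD2, MX2, XAF1 and IFI44L, each with 5 counts or fewer in any library of the lower line.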
